A study of Homo sapiens with 8 samples.

Results

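The genes described here are 49 interferon-stimulated genes and interferon regulators, measured in MDA-MB-231, an established human line of triple-negative breast cancer. The list is one of gene names, and it was drawn up with earlier results of these data known. Each gene was matched to the array features annotated to that gene alone, which gave 44 genes a transcript cluster of their own among 22011 clusters and 745 probesets among 287329. The platform was the Affymetrix Human Exon 1.0 ST array, whose probesets read single exons. Cells of both groups were stably transduced with lentivirus. The control group carried a control short hairpin RNA (shRNA), and the knockdown group carried an shRNA that targets the integrin α3 subunit. Both were grown in serum-containing medium on standard culture plates, and no interferon treatment is named in the labels. There were 2 biological replicates per group, and each array was summarised at the gene level and again at the exon level, so the exon-level values are not further replicates. The labels do not say whether replicates came from separate transductions, so p-values measure only the spread between these arrays. No sample of untransduced cells, of another α3 hairpin or of restored α3 was analysed here. The loss of α3, any other action of its hairpin and differences between the transduced populations cannot be told apart.

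Type I interferons bind a receptor built from IFNAR1 and IFNAR2, and the kinases JAK1 and TYK2 relay the signal to STAT proteins. STAT2 and IRF9 are parts of the complex that binds the interferon-stimulated response element (ISRE) near its target genes. STAT dimers bind another element, the gamma-activated site (GAS). Upstream, RIGI, IFIH1 and DHX58 recognise viral RNA, and IRF3 and IRF7 turn that signal into interferon production. Target genes encode antiviral effectors such as the OAS enzymes and the MX proteins. A set of these genes is transcribed at a basal level in many tumour cell lines without added interferon.

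Promoter sequences are shown for 4 genes, to give the elements near neighbouring or differently measured genes. They cover the 250 bases before the RefSeq start site, build GRCh38.p14, read 5′ to 3′ on the gene's strand. Capitals mark matches to an ISRE, searched as GAAA, any 1 or 2 bases and then GAAA, or to a GAS, searched as TTCNNNGAA, on both strands with overlaps kept. OAS1 rose most of the members, OAS3 is its neighbour and did not pass the test, HERC5 rose and IRF1 fell. OAS1 (chr12:112906712-112906961, + strand) held a GAS match 168 to 160 bases upstream and an ISRE match 17 to 9 bases upstream. OAS3 (chr12:112938224-112938473, + strand) held 3 ISRE matches. HERC5 (chr4:88456869-88457118, + strand) held 3 ISRE matches on the opposite strand, and IRF1 (chr5:132490774-132491023, - strand) held a GAS match 124 to 116 bases upstream and no ISRE match.
OAS1: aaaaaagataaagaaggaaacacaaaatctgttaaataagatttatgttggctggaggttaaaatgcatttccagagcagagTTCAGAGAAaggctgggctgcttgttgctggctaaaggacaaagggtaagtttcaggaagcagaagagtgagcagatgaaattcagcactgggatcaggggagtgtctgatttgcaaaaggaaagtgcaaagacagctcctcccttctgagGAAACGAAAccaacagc
OAS3: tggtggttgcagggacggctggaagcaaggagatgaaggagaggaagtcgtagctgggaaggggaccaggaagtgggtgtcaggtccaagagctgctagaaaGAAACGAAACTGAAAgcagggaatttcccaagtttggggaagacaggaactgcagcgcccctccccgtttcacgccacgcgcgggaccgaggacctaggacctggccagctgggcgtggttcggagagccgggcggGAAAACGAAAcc
HERC5: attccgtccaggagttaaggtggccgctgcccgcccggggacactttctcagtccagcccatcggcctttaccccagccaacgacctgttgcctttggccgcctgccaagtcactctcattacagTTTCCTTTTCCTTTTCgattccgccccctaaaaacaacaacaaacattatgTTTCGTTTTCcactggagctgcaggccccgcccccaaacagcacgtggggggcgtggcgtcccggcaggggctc
IRF1: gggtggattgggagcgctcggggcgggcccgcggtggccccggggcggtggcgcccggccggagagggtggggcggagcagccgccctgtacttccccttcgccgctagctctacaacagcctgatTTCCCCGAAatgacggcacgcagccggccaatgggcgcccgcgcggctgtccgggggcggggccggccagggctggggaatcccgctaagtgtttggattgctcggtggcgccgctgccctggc

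A promoter window was matched for 38 of the 49 members, and MX2 was not among them. Some genes have several windows, 55 in all for these members. An ISRE match was found in 60% of the members' windows and in 5.48% of all 35116 windows. A GAS match was found in 21.8% of the members' windows and in 6.57% of all windows. By gene, 26 of the 38 members held an ISRE match in at least 1 window. Among members that rose at the gene level, 3 of 4 with a window held one, and EIF2AK2 did not. Among those that fell, 4 of 5 did (IFITM1, IFI16, PARP9 and RIGI), and IRF1 did not. Among members that did not pass, 13 of 21 with a window held one. A match is a description of the letters in this window. Members that rose, members that fell and members that did not pass all included genes with an ISRE match.

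The values are the authors' PLIER intensities on a linear scale. Only 2 arrays per group limit their precision. The median cluster read 177 and 186 on the control arrays, against 168 and 171 on the knockdown arrays. ITGA3, the gene of the targeted subunit, read 3480 and 3529 against 619 and 644. All 5 mesenchymal markers of the line (VIM, CD44, AXL, MSN and CAV1) were bright, with group means of 1732 to 5233. Each had a lower mean with knockdown, and AXL fell (log2 difference -0.52, adjusted p = 0.00691). Their summed intensity was 20970 and 21329 in the controls, compared with 17877 and 17558 in the knockdown arrays. The 6 markers this line should lack summed to 660 and 669 in the controls, compared with 792 and 778 in the knockdown arrays. Of these, ESR1, PGR and CDH1 were below the brightness filter, and GATA3, FOXA1 and ERBB3 were tested and did not pass. The epithelial marker CDH1 averaged 27.1 in the controls and 172.5 in the knockdown arrays (adjusted p = 0.00435 without the filter). Of 10 leukocyte markers, 8 had a cluster, and their summed intensity was 2359 to 2444 in the controls and 2112 to 2124 in the knockdown arrays, most of it from CD68, which fell. Without a pass, SPI1 averaged 98.2 in the controls and 136 with knockdown (adjusted p = 0.0529), CD3E 104 and 127, and CD14 221 and 228. The other 4 (PTPRC, LYZ, HLA-DRA and CD79A) had group means of 20.9 to 51.4, below the brightness filter. Of 4 plasmacytoid dendritic cell markers, 3 had a cluster, and their sum was 239 and 249 in the control arrays against 188 and 176 with knockdown; TCF4, which is not confined to those cells, made up most of it. The part of these marker differences in the results was not tested.

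The comparison asked which of these genes the α3 hairpin cells express at another level than the control hairpin cells. OAS1 rose 3.55-fold and MX2 fell 2.42-fold, and no other member changed by as much. Altogether 4 members rose (OAS1, HERC5, EIF2AK2 and IFIT3) and 7 fell (MX2, IFI16, IRF3, RIGI, PARP9, IRF1 and IFITM1). The remaining 26 of the 37 tested members did not pass the test, and their log2 differences lay between -0.38 and 0.31. A gene rose or fell here when its Benjamini-Hochberg adjusted p over all 13207 tested clusters was under 0.05 (limma). That is 10.8% of the tested members higher and 18.9% lower, against 5.99% higher and 15.3% lower among all clusters tested. These shares lie near the background and are not read as a result about the list as a whole. The role groups below hold 9 tested genes or fewer. Their counts stand beside the same background and are not read as a result about a group. The median log2 difference of the tested members was -0.06, and that of all clusters tested was also -0.06. After quantile normalization 6 members rose and 6 fell, and the same numbers were called after centring each array on its median. Those scalings moved the median of all clusters to 0.02 and 0.04. Without control replicate 1, 2 members rose and 6 fell. Without knockdown replicate 1, 3 rose and 2 fell, and without knockdown replicate 2, 1 rose and 3 fell.

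**Figure D1:**
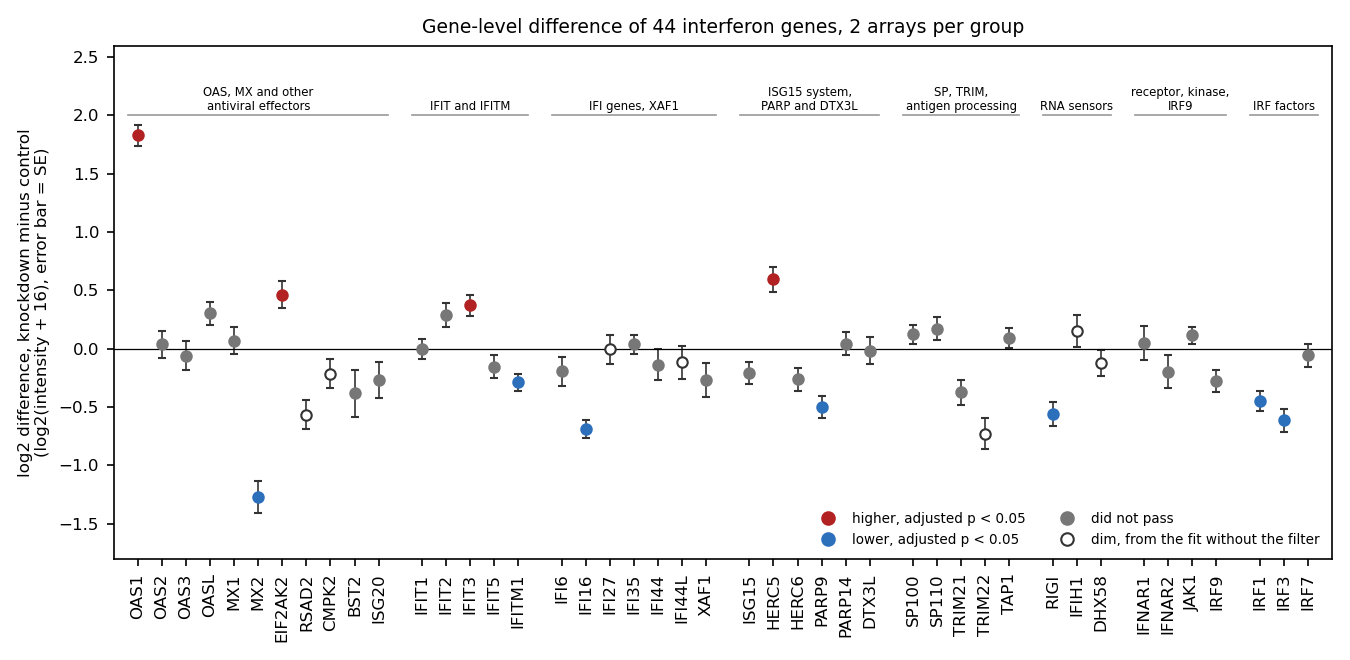
Gene-level log2 difference (knockdown minus control, on log2(intensity + 16)) of the 44 members with a cluster of their own, grouped by role, with the standard error as the bar and 2 arrays per group. OAS1 at 1.83 and MX2 at -1.27 stand apart from the other members, most of which lie near 0; open points are dim genes, drawn from the fit without the filter.

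The antiviral effectors of the OAS and MX families and their companions held the widest spread. Among the 9 tested were 2 rises and 1 fall, and 6 missed the threshold. OAS1, an enzyme that makes the second messenger 2′-5′ oligoadenylate on binding double-stranded RNA, measured 308 and 336 in the controls, compared with 1134 and 1237 in the knockdown arrays (cluster 3432438). Both knockdown arrays lay far above both controls, and the log2 difference was 1.83 ± 0.091 (SE; adjusted p = 0.000314). MX2, a dynamin-like GTPase of the nuclear envelope that restricts viruses such as HIV-1, measured 205 and 223 in the controls, against 70.8 and 88.6 after knockdown (cluster 3922037). The groups did not overlap, and the log2 difference was -1.27 ± 0.14 (SE; adjusted p = 0.00377). The direction and the call of both genes held under every alternative setting in which they were tested. The adjusted p of OAS1 stayed at or under 0.0039 and that of MX2 at or under 0.0189.

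EIF2AK2, the kinase PKR that halts translation on binding double-stranded RNA, measured 624 and 670 in the control arrays against 811 and 995 with knockdown. The log2 difference was 0.46 ± 0.11 (SE; adjusted p = 0.0354). Its adjusted p was 0.0983 without control replicate 1, 0.0626 without control replicate 2 and 0.208 without knockdown replicate 2, so the call was lost in each case. The other OAS enzymes and MX1 did not pass. OAS2 measured 157 and 183 in the controls, compared with 172 and 178 in the knockdown arrays, and OAS3 measured 213 and 256 against 212 and 236. The groups overlapped for both genes. OASL, an OAS-like protein without synthase activity, measured 516 and 600 against 682 and 702, with a log2 difference of 0.31 (adjusted p = 0.0752). It passed after quantile normalization (0.0190) and after centring (0.0140). MX1, the cytoplasmic GTPase of the family, measured 213 and 237 against 224 and 251, and its groups overlapped (log2 difference 0.07, adjusted p = 0.713). BST2, or tetherin, which holds budding virions at the cell surface, and the exonuclease gene ISG20 had log2 differences of -0.38 and -0.26 (adjusted p = 0.232 and 0.278). RSAD2, which encodes viperin, and CMPK2, the nucleotide kinase gene beside it, were too dim for the test. RSAD2 measured 81.3 and 90.1 in the control arrays against 52.3 and 52.9 with knockdown (adjusted p = 0.0557 without the filter on dim clusters).

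Of the IFIT and IFITM genes with a cluster of their own, 1 of 5 rose and 1 fell. IFIT1 binds viral RNA that lacks the host's cap methylation, and IFITM proteins block viral fusion at membranes. IFIT3 measured 2103 and 2262 in the controls, compared with 3015 and 2654 in the knockdown arrays, with no overlap. The log2 difference was 0.37 ± 0.092 (SE; adjusted p = 0.0359). Leaving out any 1 of the 4 arrays ended the call (adjusted p from 0.0556 to 0.189). IFITM1 measured 761 and 767 against 625 and 620, a narrow gap with tight replicates. With a log2 difference of -0.29 ± 0.076 (SE) it fell (adjusted p = 0.0430), and the call was lost after quantile normalization (0.0763), after centring (0.135) and without any 1 of the arrays (0.0689 to 0.248). IFITM1 is close in sequence to IFITM2 and IFITM3, so its probes may also read those genes. IFIT1 measured 1753 and 1964 against 1878 and 1824, with a log2 difference of -0.00 (adjusted p = 0.983). IFIT2 and IFIT5 had log2 differences of 0.29 and -0.15 and did not pass either (adjusted p = 0.0960 and 0.310). After quantile normalization (0.0448) or centring (0.0266) IFIT2 passed.

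Among the IFI genes and XAF1, 1 of 5 tested fell. IFI16, a nuclear DNA sensor, measured 1029 and 1023 in the control arrays against 628 and 634 with knockdown. The replicates lay within a few units of each other, and the log2 difference was -0.69 ± 0.075 (SE; adjusted p = 0.00372). IFI6, a mitochondrial and endoplasmic reticulum protein gene, measured 1661 and 1509 against 1551 and 1235, with overlapping groups (log2 difference -0.19, adjusted p = 0.317). IFI35, IFI44 and the apoptosis factor gene XAF1 had log2 differences of 0.04, -0.14 and -0.27 and did not pass (adjusted p = 0.801, 0.529 and 0.238). IFI27 and IFI44L, often among the most inducible interferon targets, were dim in all 4 arrays. Their group means in control and knockdown were 61.8 and 61.7 for IFI27 and 26.4 and 23.1 for IFI44L.

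The ISG15 system attaches the ubiquitin-like protein ISG15 to other proteins, with HERC5 as its main ligase and USP18 as the enzyme that removes it. PARP9 and DTX3L form a further ubiquitin ligase pair, and PARP14 is a related ADP-ribosyltransferase. Of the 6 tested genes of this group, 1 rose and 1 fell. HERC5 measured 331 and 367 in the controls, compared with 496 and 575 in the knockdown arrays, without overlap. The log2 difference was 0.60 ± 0.11 (SE; adjusted p = 0.0149), and only leaving out knockdown replicate 2 ended the call (0.110). PARP9 measured 470 and 526 against 355 and 339, and the groups again did not overlap. Its log2 difference was -0.50 ± 0.096 (SE; adjusted p = 0.0170), lost without knockdown replicate 1 (0.0740) or 2 (0.119). ISG15 itself measured 722 and 666 in the control arrays against 633 and 565 with knockdown, with a log2 difference of -0.21 (adjusted p = 0.173). HERC6, PARP14 and DTX3L had log2 differences of -0.26, 0.04 and -0.02 and did not pass (adjusted p = 0.109, 0.809 and 0.940).

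In the group of nuclear body, TRIM and antigen processing genes, 0 of 4 tested passed with limma's adjusted p (1 had an unadjusted p under 0.05). SP100 and SP110 encode nuclear body proteins, TRIM21 an intracellular antibody receptor, and TAP1 a subunit of the peptide transporter. Their log2 differences were 0.13, 0.17, -0.37 and 0.09. TRIM21 measured 235 and 252 in the controls, compared with 176 and 193 in the knockdown arrays (adjusted p = 0.0549), without overlap. TRIM22, a close relative of the restriction factor TRIM5, was below the filter, at 50.01 and 50.03 in the control arrays against 24.4 and 23.4 with knockdown (adjusted p = 0.0375 in the fit without the filter). PSMB9, an immunoproteasome subunit, has no cluster of its own. The cluster it shares with PSMB8-AS1 was lower (log2 difference -0.32, adjusted p = 0.0441) and cannot be assigned to either gene.

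Of the 3 RNA sensors, RIGI alone was bright enough to be tested, and it fell. It measured 561 and 654 in the controls, compared with 417 and 396 in the knockdown arrays, with a log2 difference of -0.56 ± 0.10 (SE; adjusted p = 0.0153). The call was lost without knockdown replicate 1 (0.0597) or 2 (0.0918). IFIH1, the MDA5 sensor, had group means of 91.4 and 104, and the related DHX58 had 111 and 101, both dim.

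The receptor and signalling genes with a cluster of their own did not pass in any of the 4 cases (limma; 0 at the adjusted threshold, 1 at an unadjusted p under 0.05). IFNAR1 measured 384 and 516 in the control arrays against 440 and 486 with knockdown, and IFNAR2 149 and 191 against 145 and 146. JAK1 measured 1219 and 1233 against 1348 and 1311, a log2 difference of 0.11 (adjusted p = 0.311). IRF9 measured 313 and 343 against 268 and 267, a log2 difference of -0.28 (adjusted p = 0.0929). A cluster shared by IL10RB and IFNAR2 was lower (log2 difference -0.35, adjusted p = 0.0362), while the cluster of IFNAR2 alone had a log2 difference of -0.19 (adjusted p = 0.377). Of the other clusters that a member shares, that of BCL2L12 and IRF3 was also lower (-0.40, limma adjusted p = 0.0338). Those of EIF2AK2 and ARL14EP (-0.03, 0.873) and of USP18 and USP41P (-0.41, 0.0641) did not pass. Neither did those of IFITM2 and IFITM3, TRIM5 and TRIM22, or PLVAP and BST2 (-0.06, -0.25 and -0.21). Another cluster of IFITM2 and IFITM3 was too dim for the test.

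Of the 3 IRF factors placed in this group, 2 fell, beside 15.3% of all clusters tested. IRF9, given above, and IRF2 and IRF5, which are not members, did not pass. Their log2 differences were -0.28, -0.08 and 0.01 (limma adjusted p = 0.0929, 0.561 and 0.958). IRF3, the factor activated behind RNA and DNA sensing, measured 544 and 620 in the controls, compared with 362 and 387 in the knockdown arrays. Its log2 difference was -0.61 ± 0.100 (SE; adjusted p = 0.0106), lost without knockdown replicate 1 (0.0632). IRF1, a factor induced mainly through GAS elements, measured 713 and 660 against 512 and 486. Its log2 difference was -0.45 ± 0.086 (SE; adjusted p = 0.0173), lost without knockdown replicate 1 (0.0748) or 2 (0.129). In both genes each knockdown array lay below each control. IRF7, the factor that amplifies interferon production, measured 199 and 204 against 194 and 192 and did not pass (log2 difference -0.06, adjusted p = 0.744).

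**Figure D2:**
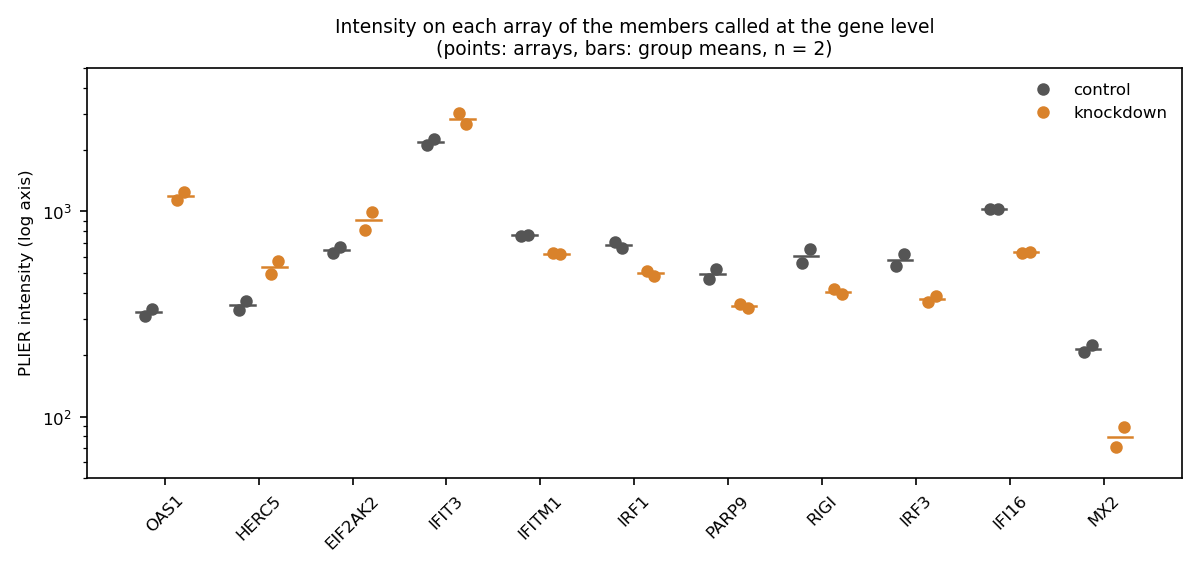
PLIER intensity on a log axis for each array of the 11 members that passed at the gene level, ordered from the largest rise to the largest fall, with points for arrays and bars for group means (n = 2). In all 11 the arrays of the groups are apart, and the gap is widest in OAS1 (308 and 336 against 1134 and 1237) and MX2 (205 and 223 against 70.8 and 88.6).

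Both knockdown arrays lay above both controls in 9 of the 37 tested members and below both in 14. Across all clusters tested, 22.3% lay above and 39.6% below, so such separation was common on these arrays. A bulk measurement cannot tell a change in every cell from a change in the share of cells that express a gene.

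Several members lie side by side in the genome, and the difference between neighbours was tested directly, as the log2 ratio of the adjacent genes on each array. This test was added after the values were seen. It was run over 4950 pairs of adjacent protein-coding genes, of which 31.3% passed, so unequal change of neighbours was frequent. Of 7 pairs of members, 4 passed. OAS1 minus OAS3 differed between the groups by 1.89 ± 0.11 (SE; adjusted p = 3.92e-05), and MX2 minus MX1 by -1.34 ± 0.13 (SE; adjusted p = 0.000366). In both families 1 gene moved and its neighbour did not pass, with OAS1 higher and MX2 lower. HERC6 minus HERC5 differed by -0.86 ± 0.12 (SE; adjusted p = 0.00144). PARP9 minus DTX3L differed by -0.48 ± 0.13 (SE; adjusted p = 0.0240), a call that ended on leaving out control replicate 1 (0.0718), control replicate 2 (0.0988) or knockdown replicate 2 (0.151). The pairs OAS3 and OAS2, IFIT2 and IFIT3, and IFIT1 and IFIT5 did not pass, with differences of -0.10, -0.08 and 0.15 (adjusted p = 0.569, 0.514 and 0.265).

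**Figure D3:**
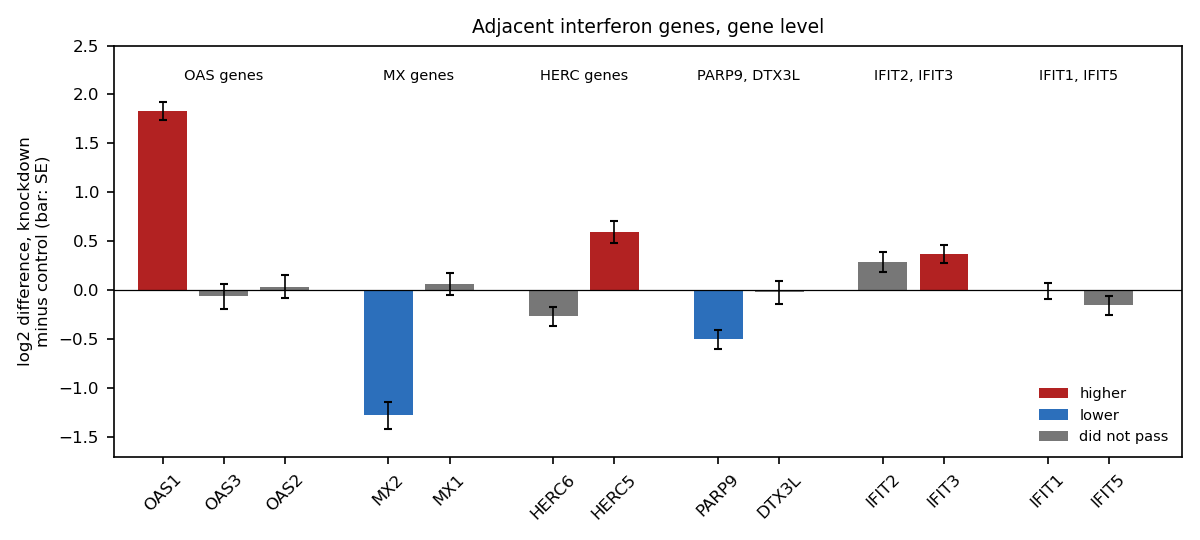
Gene-level log2 difference (knockdown minus control, bars from 0, error bars the SE, 2 arrays per group) of adjacent members, by locus. OAS1 at 1.83 stands beside OAS3 at -0.06 and OAS2 at 0.04, and MX2 at -1.27 beside MX1 at 0.07.

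The exon-level summaries show how much of each transcript carried the difference. Of the 745 probesets of the members, 555 were bright enough to be tested, and 18 rose and 29 fell. Among all 172398 probesets tested, 1.33% rose and 3.25% fell. The risers came from 4 genes, with 12 probesets of OAS1, 3 of HERC5, 2 of EIF2AK2 and 1 of PARP14. The fallers came from 6 genes, with 9 probesets of IFI16, 7 of STAT2, 6 of MX2, 4 of RIGI, 2 of IRF3 and 1 of IRF7. Without 1 of the arrays at a time, 8 to 14 fell (9 without control replicate 1, 8 without control replicate 2, 14 and 9 without knockdown replicates 1 and 2). No member had probesets called in both directions. Probesets of a gene read the same RNA and are not replicates. Counts of probesets with both knockdown arrays above or below both controls are given below for single genes. The share of such probesets over all tested ones was not counted. At the gene level it was 22.3% above and 39.6% below.

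All 12 tested probesets of OAS1 rose, with log2 differences from 1.29 to 2.07, and in all 12 both knockdown arrays lay above both controls. Probeset 3432448 had the largest difference, at 419 and 382 in the control arrays against 1712 and 1753 with knockdown. The brightest, 3432446, measured 1031 and 1292 against 3845 and 4241. The smallest difference, 1.29, was that of 3432455, at 605 and 711 against 1726 and 1526. The remaining 3 probesets, 3432456 to 3432458, lay below the brightness filter.

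MX2 was less even. All 12 of its tested probesets had negative differences, from -2.14 to -0.05, and 6 fell. In 9 of the 12 both knockdown arrays lay below both controls. The lowest value was that of probeset 3922090, at 359 and 761 in the controls, compared with 97.2 and 116 in the knockdown arrays, where the controls themselves differed widely. Its neighbour 3922089 measured 434 and 394 against 108 and 89.0 (log2 difference -1.91, adjusted p = 0.00361). By contrast, 3922056 measured 631 and 618 against 576 and 625, overlapping groups with a log2 difference of -0.05 (adjusted p = 0.887). Probeset 3922067 measured 319 and 281 against 250 and 249 (log2 difference -0.25, adjusted p = 0.546). The 4 highest-numbered tested probesets, 3922088 to 3922091, all fell, with log2 differences from -2.14 to -1.46.

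**Figure D4:**
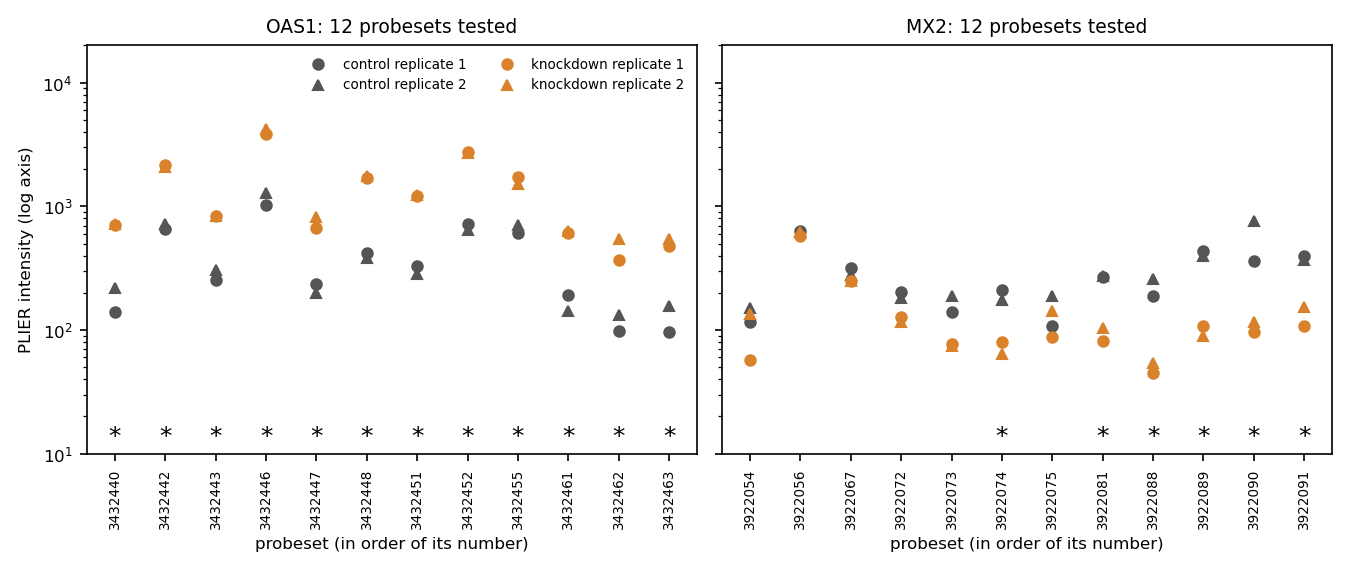
PLIER intensity on a log axis of each tested probeset of OAS1 and MX2 on each of the 4 arrays, in order of probeset number, with an asterisk where the probeset passed. All 12 OAS1 probesets are higher in both knockdown arrays, while in MX2 the gap is wide for 3922088 to 3922091 and absent for 3922056.

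Whether a probeset departed from the rest of its gene was tested as its log2 value minus the mean of the gene's other tested probesets. Of 551 member probesets, 0 passed this test with limma (36 had an unadjusted p under 0.05), where 0.0515% of all 155392 probesets passed. The MX2 probeset 3922056 came nearest, with a relative difference of 1.10 ± 0.16 (SE; adjusted p = 0.0767), and an uneven response of MX2 along its length is thus not established by this test. With limma's diffSplice 1 member probeset passed, PARP14 probeset 2639097, where 0.376% of all probesets passed. It measured 119 and 67.6 in the control arrays against 239 and 235 with knockdown (diffSplice adjusted p = 0.000174, against 0.447 in the test above). The IRF7 probeset 3358198 measured 408 and 336 against 144 and 171 and fell (log2 difference -1.16, adjusted p = 0.0248), while IRF7 as a gene did not pass. With the replicate number as a block, 6 member probesets passed the exon usage test, 3 of them in MX2 (3922056, 3922067 and 3922090).

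A second gene value, the median log2 value over a gene's tested probesets, could be fitted for 48 members, among them the 5 without a cluster of their own. In this fit OAS1 (1.73, adjusted p = 0.000523) and HERC5 (0.57, adjusted p = 0.0425) rose, and MX2 (-1.16, adjusted p = 0.0117), RIGI (-0.73, adjusted p = 0.0237) and STAT2 fell. Among all 15106 genes in this fit, 2.12% rose and 5.75% fell. STAT2, the transactivating subunit of the ISRE-binding complex, had median probeset intensities of 549 and 675 in the controls, compared with 392 and 394 in the knockdown arrays. Its log2 difference was -0.61 ± 0.14 (SE; adjusted p = 0.0414). All 25 tested probesets of STAT2 had negative differences, from -1.27 to -0.25, and in 22 of them the arrays of the groups were apart. No share over all probesets was counted for this separation, nor over all genes for the shared sign. The median log2 difference of all tested probesets was -0.05, and 39.6% of all clusters lay below at the gene level. Leaving out any 1 array ended the STAT2 call (adjusted p from 0.0663 to 0.161).

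The exon-level medians did not pass for 7 members called at the gene level. The adjusted p was 0.0521 for IFI16, 0.0516 for PARP9, 0.0528 for IRF3, 0.0908 for IRF1, 0.0944 for IFIT3, 0.174 for EIF2AK2 and 0.189 for IFITM1. All 16 tested probesets of IFI16, all 12 of IRF1 and all 19 of EIF2AK2 kept the direction of the gene-level difference, as did 12 of 13 of IRF3 and 21 of 22 of RIGI. These probesets were read on the same arrays as the gene-level values by which the genes were called, so the shared direction is no separate support. IFITM2 had a median log2 difference of -0.29 and IFITM3 one of 0.33 (adjusted p = 0.216 and 0.120), and since their sequences are nearly alike, the split between them is uncertain. USP18 and PSMB9 had median log2 differences of -0.41 and -0.25 (adjusted p = 0.237 and 0.194). TRIM22, dim at the gene level, had 2 tested probesets. Their median log2 difference was -0.63 and did not pass (adjusted p = 0.0795). Over the 37 members tested at the gene level, 35 had the same sign in both summaries, which share their arrays.

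**Figure D5:**
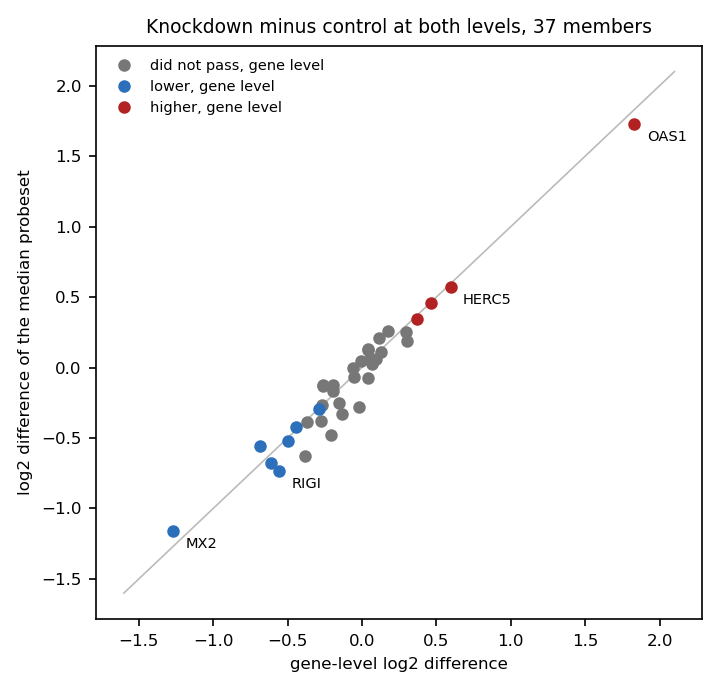
Log2 difference of the gene-level value (x axis) against that of the median tested probeset (y axis), knockdown minus control, for 37 members tested at the gene level; the grey line marks equality. OAS1 lies at 1.83 and 1.73 and MX2 at -1.27 and -1.16, and 35 of the 37 points have the same sign on both axes.

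Beyond the members, 122 other genes of the interferon pathway were listed, of which 96 had a cluster of their own and 74 were tested. Of these 6 rose (8.11%) and 19 fell (25.7%), beside 5.99% and 15.3% of all clusters. After quantile normalization 9 rose and 14 fell, and after centring 9 and 13. The median log2 difference was -0.09. IFNGR1, the ligand-binding chain of the interferon gamma receptor, measured 505 and 471 in the control arrays against 698 and 720 with knockdown (log2 difference 0.52 ± 0.084 SE, adjusted p = 0.0101). ZC3HAV1, the antiviral zinc finger protein that binds viral RNA, the phosphatase gene PTPN1, TRAFD1, the proteasome activator gene PSME1 and PARP12 rose by 0.32 to 0.37 on the log2 scale (adjusted p from 0.0184 to 0.0446). Without knockdown replicate 1, or without knockdown replicate 2, limma called 0 of the 74 higher (7 and 5 at an unadjusted p under 0.05), and 7 and 8 lower.

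The 6 falls with the smallest p-values (limma) are given here, and a function shared by the genes that fell was not tested. MAVS, the mitochondrial adaptor that RIGI and IFIH1 signal through, measured 1055 and 1068 in the controls, compared with 658 and 645 in the knockdown arrays (log2 difference -0.69 ± 0.075 SE, adjusted p = 0.00369). NUB1, a regulator of ubiquitin-like proteins, measured 1379 and 1431 against 760 and 846 (log2 difference -0.80, adjusted p = 0.00359). ADAR, the enzyme that edits adenosine in double-stranded RNA, measured 1651 and 1716 against 1121 and 1112 (log2 difference -0.59, adjusted p = 0.00498). TRIM14, an adaptor at MAVS, measured 347 and 391 against 196 and 210 (log2 difference -0.81, adjusted p = 0.00571). SLFN5 measured 172 and 200 against 79.6 and 96.3 (log2 difference -0.96, adjusted p = 0.00797), the largest fall of the other pathway genes tested. TENT5A fell by 0.70 on the log2 scale (adjusted p = 0.00481). Unlike the rises, these 6 falls passed under every alternative setting that tested them.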

How the data were processed

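RNA of MDA-MB-231 cells was hybridised to 4 exon arrays, 2 per group. The deposited values are PLIER intensities made by the authors with Affymetrix Expression Console from core gene and core exon probesets, per the labels; versions, background correction and normalization are not stated in those sources. Symbols came from the platform annotation, updated through RefSeq names. Features with several genes or none stayed in the tests without a name. Of several clusters of a gene the brightest was taken.

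Intensities were transformed as log2(value + 16), which understates changes of dim genes, and features in the lower 40% by mean were removed. limma 3.58.1 (lmFit, eBayes with intensity trend, 2 residual degrees of freedom, two-sided) in R 4.3.3 compared knockdown with control over all features, with p-values adjusted by Benjamini-Hochberg (threshold 0.05). The R package data.table (version 1.17.8), Python 3.11.15, pandas 2.3.3 and matplotlib 3.10.9 were used. Exon usage needed 3 tested probesets per gene. The gene-level, neighbour-pair, exon-level, exon-level median and exon usage fits were run on simulated data in their main setting. The alternative settings, diffSplice and the promoter search were not.

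The members and lists were chosen with earlier results of these data known. Named with values in every array were ITGA3, OAS1, MX2, each member called, each member whose call differs between levels, the brightest others per role, and up to 6 other pathway genes per direction. TRIM21, OASL, RSAD2, TRIM22 and the MX2, PARP14 and IRF7 probesets were singled out after their values were seen. Alternatives were another offset or filter, no trend, quantile normalization, centring, a replicate block, each array left out, exon-level medians and diffSplice.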

Additional observations from a re-analysis of the deposited data

How the results depend on the processing

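OAS1 and MX2 kept their direction and call under each alternative that tested them, with log2 differences of 1.73 to 1.93 and of -1.42 to -1.14; the stricter filter left MX2 untested. No named gene that passed changed direction. Without the filter on dim features, 2 members rose and 11 other pathway genes fell. Of the member probesets 2 rose and 0 fell (limma, where 98 had a negative difference at an unadjusted p under 0.05). More features then entered both the intensity trend and the adjustment, and their parts were not tested separately. From exon-level medians 2 members rose and 3 fell. Without the intensity trend 5 member probesets fell. With each array left out in turn, the lone array of a group was assumed to vary like the other group. Then 1 to 4 members rose and 2 to 6 fell, 0 to 5 other pathway genes rose (limma; 5 to 14 at an unadjusted p under 0.05) and 7 to 15 fell, 8 to 14 member probesets fell, 0 to 2 passed for exon usage, and 3 to 4 neighbour pairs passed. With diffSplice 1 member probeset passed for exon usage. With the stricter filter 1 neighbour pair passed, since fewer pairs had both genes tested. Deviations from the group means of arrays with the same number correlated at r = 0.29. With groups of 2 this does not show that the numbers pair the cultures. With the replicate block 5 members rose and 9 fell, 9 other pathway genes rose and 24 fell, 45 member probesets rose and 69 fell, and 6 passed for exon usage. OASL, TRIM21 and BST2 then passed (adjusted p = 0.0335, 0.0226 and 0.0463). Where no construction of the alternative is named, the cause was not tested. With 4 arrays, 7 dim members and changes near those of IFITM1 lie at the limit of what could be called.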
